A study of Mus musculus with 4 samples.

Results

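The replication-dependent histone genes are the clustered genes that make the core histones H2A, H2B, H3 and H4 and the linker histone H1. They were taken as every row of the count tables whose symbol begins with Hist1h, Hist2h, Hist3h or Hist4h and that held at least 10 UMIs (unique molecular identifiers, each standing for 1 counted molecule) summed over the 4 libraries. This gave 64 genes of the 32285 in the tables. A further 3 of the 67 rows with such a symbol fell short, Hist1h2bq with 4 UMIs, Hist1h2aa with 2 and Hist1h2ba with 1. Just inside the limit were Hist2h2aa2 with 18 UMIs and Hist1h1t, the testis linker histone gene, with 22. The cells were live CD45+ leukocytes sorted from B16-F10 mouse melanoma tumors and profiled by droplet single-cell RNA sequencing with a 10x 5′ kit. The 4 groups were control, CD40 (an antibody to CD40 given into the tumor), PD1 (an antibody to PD1 given intravenously) and combination (both antibodies). Dilution buffer stood in for the CD40 antibody and IgG for the PD1 antibody. Treatment was on days 8 and 11 after inoculation, and tumors were taken on day 14. Each group was 1 library made from the pooled suspensions of 6 mice, so no difference between groups has a replicate or a test. The strain, sex and age of the mice are not given in the labels. The labels call the cell type melanoma, whereas the sort was for CD45+ cells: only 4 to 14 cells per library passed a gate on melanoma genes and no other gate.

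When the genome is copied its chromatin has to be copied too, and these genes supply the bulk of the histone protein for that step during S phase. Their mRNAs are unusual in that most end in a conserved stem-loop bound by the protein SLBP in place of a poly(A) tail, and they are degraded when DNA synthesis stops. Some members can also give polyadenylated transcripts that last outside S phase. The kit primes cDNA from poly(A), so a UMI here counts captured molecules and not the whole pool of histone mRNA, and how much of that pool was captured was not tested.

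Cells were placed in classes by counting the marker genes detected in each cell, with cut-offs set after the data were seen. Classes were compared if no library held fewer than 100 of their cells. These 5 were mononuclear phagocyte-like cells (3665 in control, 3744 in CD40, 5360 in PD1 and 3307 in combination), CD8 T-like cells (620, 1759, 1006 and 2946), NK-like cells (490, 402, 674 and 535), Treg-like cells (427, 121, 407 and 146) and neutrophil-like cells (183, 352, 146 and 918). All values are given in this order of libraries. The median cell of a class held between 0 and 1 UMI of the neutrophil list outside the neutrophil-like class, except in mononuclear phagocyte-like cells of the combination library, where it held 2. In NK-like cells the median was 65, 274.5, 103 and 242 UMIs of the NK list against 4, 6, 4 and 6 of the T list and 3, 9, 4 and 10 of the mononuclear phagocyte list. Libraries of a pair shared between 94 and 144 cell barcodes. Levels are UMIs per 1000000 UMIs of the class (CPM). Intervals are 95% intervals that cover counting error only, and they are too narrow wherever a few cells hold many of the UMIs. Because histone mRNA is summed over a class, more cells with histone mRNA and more histone mRNA per cell cannot be told apart from the sum alone.

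The 64 members comprised 6 H1, 17 H2A, 16 H2B, 12 H3 and 13 H4 genes. Of these, 51 lay in the Hist1 cluster on chromosome 13, 10 in Hist2 on chromosome 3, 2 in Hist3 on chromosome 11 and 1 in Hist4 on chromosome 6. Together they held 403247 UMIs. H1 genes took 39.98% of these, H2A 30.13%, H4 13.47%, H2B 9.057% and H3 7.357%. The UMIs were concentrated: Hist1h2ae with 60545, Hist1h1e with 59748 and Hist1h1b with 53868 made up 43.19% of the total, and the leading 10 members made up 75.15%. At least 100 UMIs were counted for 58 members and at least 1000 for 37. These counts depend on poly(A) capture and on how reads of near copies were assigned, so they do not rank the genes by level. Several members are near copies of each other: 38 had more than 50% of their 90-base stretches found in no other gene, and these held 84.07% of the UMIs, whereas 5 had less than 10%. Hist1h2ap, an H2A gene with 7.63% unique stretches, is therefore uncertain. These shares cover whole annotated transcripts, long 3′ UTRs included. The kit was a 5′ kit, so they may overstate how well reads of the other members can be assigned. A further uncertainty applies to 7 members that overlap another gene on the same strand, among them Hist1h1e and Hist1h2be, which overlap each other.

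The stem-loop is the feature that most sets these mRNAs apart, so 1 example of each of its letter versions is shown, with the annotated gene span left aside and only the site given. The pattern sought was a stem of 6 bases, GGNNCT with N any base, that pairs fully with AGNNCC. The loop between them had 4 bases with a T at position 2. Whole annotated transcripts were searched. The pattern was found for 44 of the 51 members whose annotated 3′ UTR has at least 30 bases. Across all annotated genes it was found in 92 of 55450, or 0.1659%. Capitals mark the stem, letters are those of the mRNA strand written as DNA, and coordinates are GRCm38.
Hist1h1e, chr13:23621777-23621802, minus strand: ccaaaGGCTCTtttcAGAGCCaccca
Hist1h4d, chr13:23581945-23581970, plus strand: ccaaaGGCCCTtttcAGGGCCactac
Hist1h3e, chr13:23561898-23561923, minus strand: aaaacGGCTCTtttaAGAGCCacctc
Hist1h4i, chr13:22040961-22040986, minus strand: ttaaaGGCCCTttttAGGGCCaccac
Hist1h4b, chr13:23757361-23757386, plus strand: caaaaGGTCCTtttcAGGACCactca
Hist2h2ac, chr3:96220413-96220438, minus strand: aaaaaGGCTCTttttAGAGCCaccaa
The version shown for Hist1h1e was shared by 26 members, that of Hist1h4d by 7 and that of Hist1h3e by 6. The remaining versions belonged to 2, 2 and 1 members. The longest annotated transcript of Hist1h1e ran on for 1153 bases after the stem-loop, that of Hist3h2a for 1643 and that of Hist1h2ab for 11. No such match was found for Hist1h2bc in an annotated 3′ UTR of 742 bases, nor for Hist2h2be in 2192 bases.

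Histone genes often start back to back. There were 11 neighbouring pairs of members that ran in opposite directions from a shared gap, and 10 of them joined an H2A gene to an H2B gene. The partners did not yield like counts. In the gap of 176 bases between Hist1h2ae and Hist1h2bg, the H2A side had 60545 UMIs and the H2B side 911. For Hist1h2ag and Hist1h2bj, 270 bases apart, the H2A side had 846 UMIs and the H2B side 8929. For Hist1h2ac and Hist1h2bc the counts were 2497 and 4436.

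Promoters of 58 members were matched in RefSeq (GRCm38.p6) and compared with all 32851 promoters of the same 300 bases, from 250 before the start to 50 after it. Motifs were searched on both strands. The TATA box letters TATAAA were in 56.9% of members against 13.62% of all promoters, and the CCAAT letters in 84.48% against 37.41%. The octamer ATTTGCAT, the site by which Oct-family factors are known to act on H2B genes, was in 18.97% of members against 1.735% of all. It was confined to H2A (6 of 16) and H2B (5 of 14), whose paired promoters share sequence. The H1 box letters AAACACA were in 5 of 6 H1 promoters and 7.184% of all promoters. CCAAT was in every matched H1, H2A, H2B and H3 promoter but in 3 of 12 H4 promoters. The 150 bases before the start are shown for 1 member of each type. It is the one with the most UMIs over all cells among the matched members. Any of these 4 motifs is in capitals on either strand.
Hist1h1e, chr13:23622559-23622708, minus strand: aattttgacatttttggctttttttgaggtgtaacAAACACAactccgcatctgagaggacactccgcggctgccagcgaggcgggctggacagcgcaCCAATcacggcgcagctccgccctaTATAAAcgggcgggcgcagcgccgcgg
Hist1h2ae, chr13:23571221-23571370, minus strand: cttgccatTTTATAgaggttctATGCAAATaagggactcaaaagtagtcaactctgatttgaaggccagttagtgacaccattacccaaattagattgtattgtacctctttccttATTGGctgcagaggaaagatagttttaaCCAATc
Hist1h2bj, chr13:22043048-22043197, plus strand: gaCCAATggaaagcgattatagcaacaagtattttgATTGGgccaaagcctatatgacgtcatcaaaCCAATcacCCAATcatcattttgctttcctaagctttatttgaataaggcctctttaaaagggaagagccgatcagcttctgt
Hist1h3e, chr13:23562386-23562535, minus strand: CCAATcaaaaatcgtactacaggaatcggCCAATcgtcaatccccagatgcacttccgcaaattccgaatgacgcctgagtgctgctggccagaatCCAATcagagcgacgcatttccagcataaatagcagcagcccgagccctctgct
Hist1h4d, chr13:23581418-23581567, plus strand: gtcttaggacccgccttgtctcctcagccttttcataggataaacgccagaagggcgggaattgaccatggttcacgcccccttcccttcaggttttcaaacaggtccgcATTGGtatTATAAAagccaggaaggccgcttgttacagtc
Only the H1 window carries the H1 box and only the H2A window the octamer. A match describes letters and does not show that a factor is bound.

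The first question was how closely each member follows S phase in these leukocytes. Each cell of at least 3000 UMIs was thinned to 3000, and it counted as S-phase-list-positive when at least 5 of the thinned UMIs came from 25 replication genes such as Mcm2 to Mcm7 (the replicative helicase), Pcna (the polymerase clamp) and Rrm2 (nucleotide supply), none of which is a histone gene. Over all cells, summed histone CPM was 1598.1, 2210.2, 1852.4 and 2725 in positive cells and 275, 345, 238 and 314 in the others. Among the 44 members with at least 100 UMIs in every library, 38 were more than 1 log2 unit higher in positive cells in each of the 4 libraries. Of all genes read this way, 6.5% met the same condition. The median of the members' mean log2 ratios was 2.62, against 0.081 for all genes.

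Hist1h1a, an H1 subtype, had the highest ratio. Its level in positive cells was 47.3, 63.3, 44.6 and 63.3 CPM, against 2.94, 4.23, 2.12 and 3.16 CPM in the others, or log2 ratios of 4.01, 3.90, 4.40 and 4.32. Hist1h2ap followed with 3.56, 3.57, 3.96 and 4.30, and Hist1h1b, another H1 subtype, with 3.64, 3.52, 4.11 and 3.93. The lowest ratio belonged to Hist3h2a, an H2A gene of the small Hist3 cluster on chromosome 11, with 0.885, 0.912, 0.913 and 0.603 CPM in positive cells and 2.74, 2.29, 2.94 and 1.72 CPM in the others. Its log2 ratios were -1.63, -1.33, -1.69 and -1.51, each with an interval below 0. Hist1h2bc, an H2B gene, had -0.43, -0.38, -0.14 and -0.36, and the interval for the PD1 library reached 0.15. These ratios over all cells mix classes with different levels. Within CD8 T-like cells Hist1h2bc had 1.01, 1.15, -0.69 and 0.53, with the interval above 0 in 3 libraries, and within mononuclear phagocyte-like cells -0.48, -0.27, 0.54 and -0.25, so its direction differed between libraries in both. Hist2h2be, also H2B, had 0.13, -0.46, -0.78 and 0.75, so its direction differed between libraries. The others that fell short of 1 in at least 1 library were Hist1h1c, Hist3h2ba and Hist2h2aa1. The plot of S-phase ratios by gene shows the spread.

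**Figure D1:**
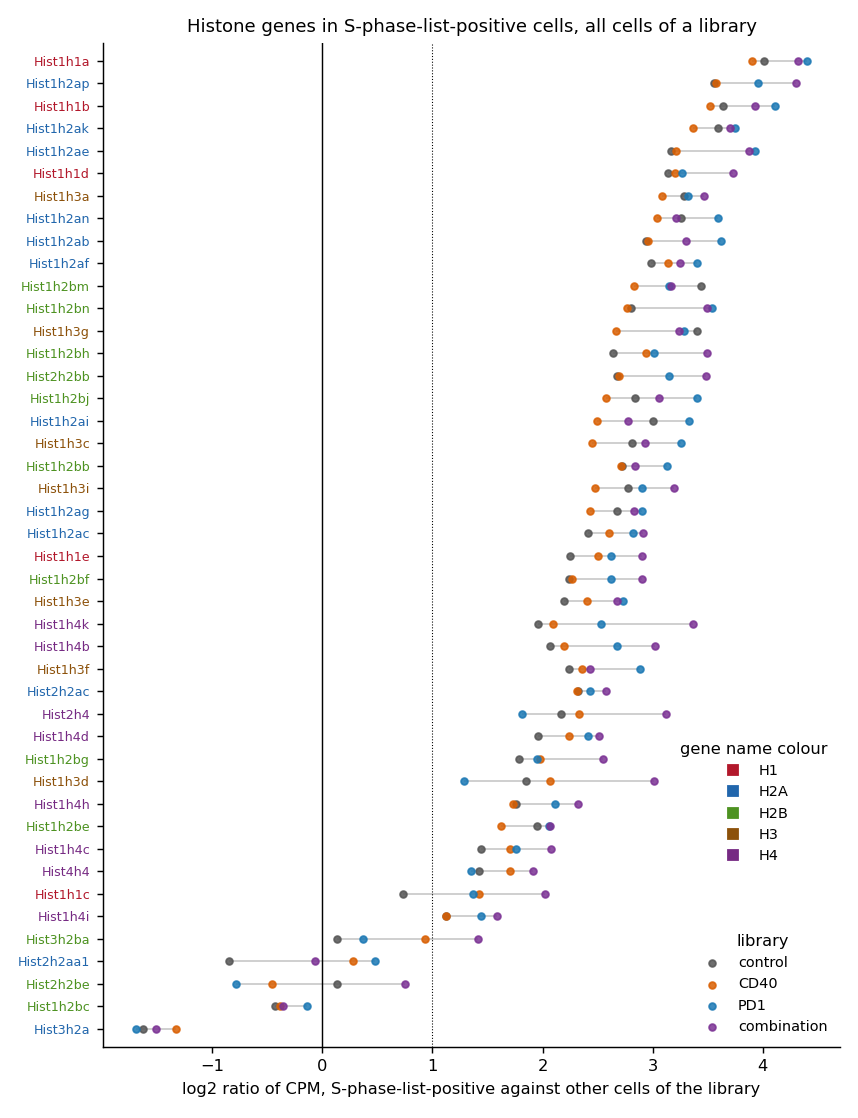
Log2 ratio of CPM in S-phase-list-positive against other cells (x axis) for the 44 histone genes with at least 100 UMIs in every library (rows, name coloured by histone type); each point is 1 library and the grey line spans the 4. Points of 38 genes lie to the right of the dotted line at 1 in all libraries, and those of Hist1h2bc and Hist3h2a lie left of 0 in all.

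By type, the median of the members' mean ratios was 3.33 for 5 H1 genes, 3.04 for 12 H2A, 2.68 for 12 H2B, 2.84 for 7 H3 and 2.13 for 8 H4. The types overlapped widely, since H1 genes ran from 1.39 (Hist1h1c) to 4.16 and H2A genes from -1.54 to 3.85. The H4 genes lay between 1.32 (Hist1h4i) and 2.49 (Hist1h4b). Members with and without the promoter octamer had medians of 2.85 (9 genes) and 2.57 (29 genes). The 31 members with a matched stem-loop had a median of 2.49 and included Hist3h2a.

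The same ordering was read within 2 classes. In CD8 T-like cells 20 of 21 members were more than 1 log2 unit higher in positive cells in every library, where 4.83% of all genes were. The median was 2.27 against 0.011 for all genes. In mononuclear phagocyte-like cells it was 20 of 27 members, where 4.89% of all genes were, and the median was 2.18 against 0.066. Hist1h1a, Hist1h2ap and Hist1h1b were the highest 3 in both. Hist1h1c, a somatic H1 subtype, had lower ratios in mononuclear phagocyte-like cells, of 0.56, 0.97, 0.98 and 1.43. Hist3h2a had -1.39, -0.95, -0.50 and -0.83 there.

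A second list of 18 genes that act in G2 and mitosis, such as Mki67, Top2a and Cdk1, split the cells further, a cell counting as positive with at least 3 thinned UMIs. Histone mRNA was highest in cells positive for both lists in mononuclear phagocyte-like, CD8 T-like, NK-like and Treg-like cells of every library but 1, the NK-like cells of the PD1 library, where 1 cell positive for the G2 and M list alone stood at 4267.6 CPM against 3949.8 CPM. In CD8 T-like cells these held 3254.1, 4012.3, 2981.5 and 3707.2 CPM. Cells positive for the S-phase list alone held only 322, 497, 517 and 486 CPM, above the 220, 268, 229 and 265 CPM of cells positive for neither. Cells positive for the G2 and M list alone were in between, at 1148, 2762, 1761 and 2139 CPM. Mononuclear phagocyte-like cells showed the same order, with 2153, 2256.4, 2251.8 and 2197.7 CPM for both lists, 909, 863, 700 and 877 CPM for G2 and M alone, 220, 208, 158 and 255 CPM for S alone and 152, 164, 143 and 153 CPM for neither. A cell's position depends on the list cut-offs, and 44, 177, 103 and 265 CD8 T-like cells had 4 or 5 thinned S-phase UMIs, at the edge of the gate.

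**Figure D2:**
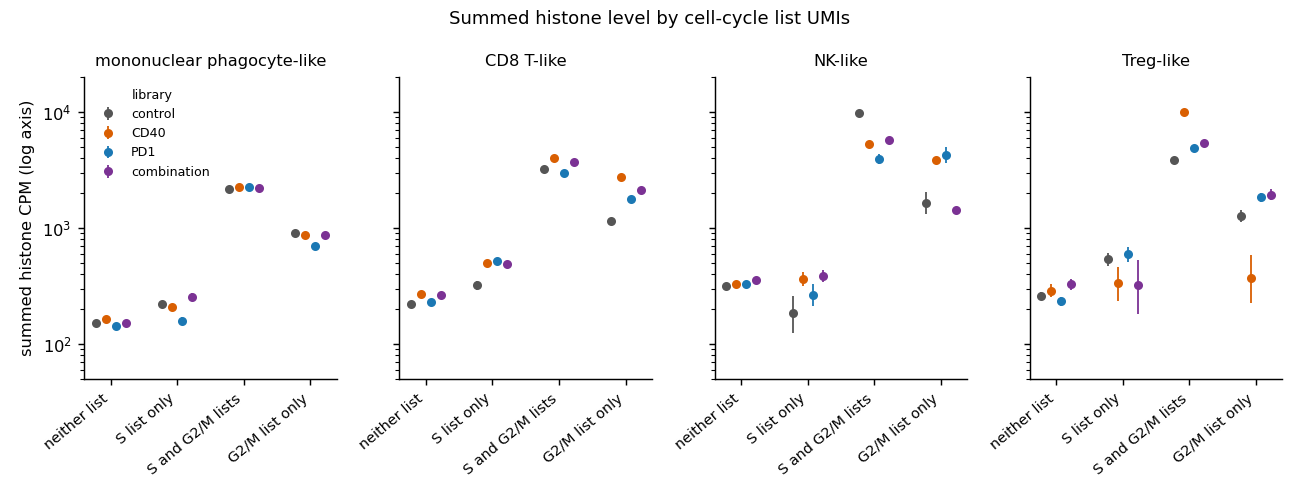
Summed histone CPM (log axis) of cells positive for neither list, the S-phase list alone, both lists, or the G2 and M list alone, in 4 classes; points are libraries and bars are 95% counting intervals. In every class and library the cells positive for both lists lie above those positive for neither and those positive for the S-phase list alone.

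The classes differed in how much histone mRNA they held. CD8 T-like cells had 1262.1, 1792, 1453 and 1689.1 CPM summed over the 64 genes, and Treg-like cells had 1037.3, 1300.6, 1339.2 and 1362.9 CPM. NK-like cells split by treatment, with 581 and 439 CPM in the control and PD1 libraries and 1606.5 and 1431.1 CPM in the CD40 and combination libraries. Neutrophil-like cells had 795, 584, 568 and 518 CPM, and mononuclear phagocyte-like cells had 336, 427, 239 and 287 CPM, the lowest class in every library. The share of cells past the S-phase gate was 29.3%, 35.2%, 36.8% and 32.5% of CD8 T-like cells, 15.7%, 14.2%, 14.6% and 11.8% of Treg-like cells, and 6.7%, 8.2%, 3.19% and 4.14% of mononuclear phagocyte-like cells. Without thinning, the CD8 T-like shares were 58.5%, 71.6%, 72.7% and 73.2%. The positive cells carried 85.2%, 82.9%, 82.7% and 84.5% of the histone UMIs of CD8 T-like cells of at least 3000 UMIs. They also held 47.2%, 50.1%, 53.3% and 47.1% of all UMIs of those cells. The log2 ratio of the summed level in positive against other cells was 2.69, 2.27, 2.06 and 2.61 in CD8 T-like, 3.34, 2.39, 1.78 and 3.05 in NK-like, 2.93, 4.18, 3.10 and 3.05 in Treg-like and 2.20, 2.25, 2.63 and 2.52 in mononuclear phagocyte-like cells. With the gate at 10 thinned UMIs, the CD8 T-like ratios were 1.80, 1.52, 1.28 and 1.58.

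**Figure D3:**
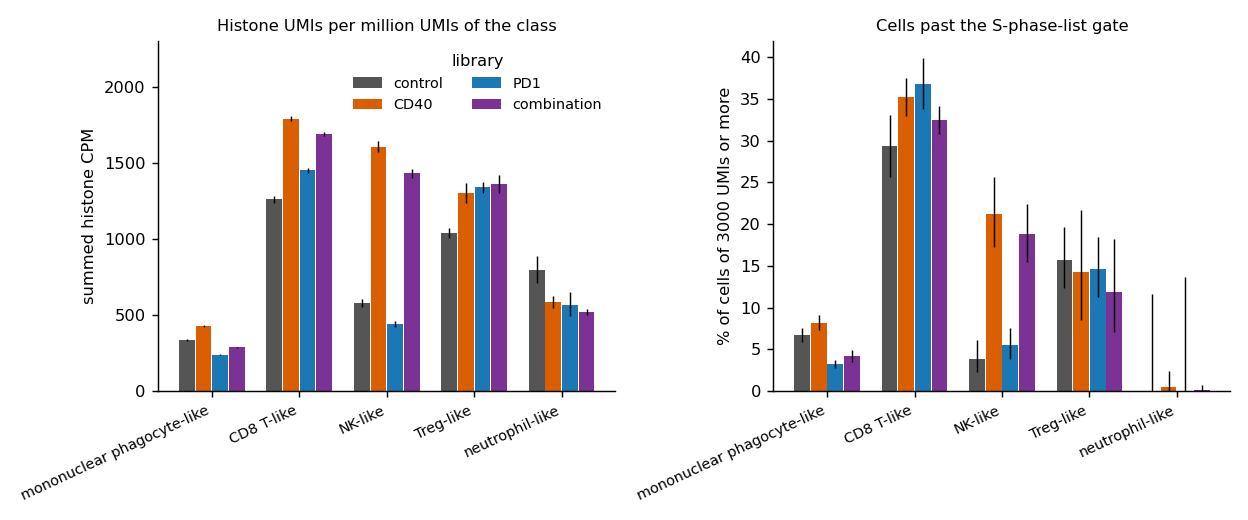
Summed histone CPM by class (left, bars from 0) and the percent of cells of at least 3000 UMIs that passed the S-phase-list gate (right), by library, with 95% counting intervals. NK-like bars of the CD40 and combination libraries stand above those of control and PD1 in both panels, and neutrophil-like cells have histone UMIs with almost no cell past the gate.

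In NK-like cells, histone genes of all 5 types were higher with the CD40 antibody, both without and with the PD1 antibody. The summed level was 2.76-fold higher in the CD40 than in the control library (log2 1.47, interval 1.39 to 1.54) and 3.26-fold higher in the combination than in the PD1 library (1.70, 1.63 to 1.77). These 2 comparisons share no library. Of the 32 members with at least 30 UMIs over the control and CD40 libraries, 24 were higher by at least 1 log2 unit and none was lower by that much, where 5.16% of all genes were that much higher. In the combination against the PD1 library it was 28 of 34, where 4.73% of all genes were. The median member stood at 1.51 in both comparisons, against -0.047 and -0.07 for all genes. The other 32 and 30 members had too few UMIs to be read.

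Among H1 genes, Hist1h1b had 36.8, 239, 28.3 and 204 CPM, with log2 ratios of 2.70 for CD40 against control and 2.85 for combination against PD1. Hist1h1e had 148, 317, 115 and 289 CPM, with log2 ratios of 1.10 and 1.33. Hist1h1d had 28.2, 89.2, 17.7 and 75.7 CPM, with 1.66 and 2.10. For all 3 the levels in libraries with and without CD40 antibody did not overlap. The share of all genes that separated in this way is not given here, so this does not mark the members out. The leading H2A gene, Hist1h2ae, had 58.3, 196, 38.1 and 182 CPM, with 1.75 and 2.26. The leading H2B gene, Hist1h2bj, had 11.7, 36, 6.82 and 31.3 CPM, with 1.63 and 2.20. Core histones H3 and H4 moved less: Hist1h3e had 21.5, 47.2, 19.8 and 46.2 CPM (1.13 and 1.22), and Hist1h4d 59.6, 119, 53.9 and 117 CPM (1.00 and 1.12). Summed by type, the CD40 to control ratios were 1.61 for H1, 1.75 for H2A, 1.20 for H2B, 1.16 for H3 and 0.89 for H4, and the combination to PD1 ratios were 1.78, 2.20, 1.72, 1.25 and 1.05.

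The members below 1 log2 unit in the first comparison were Hist1h4c, Hist1h3f, Hist1h4h, Hist3h2ba, Hist2h4, Hist1h2be, Hist1h3a and Hist4h4. Of these, Hist1h4c (0.09 and 0.19) and Hist1h3a (0.50 and 0.27) stayed low in both comparisons, as the plot of NK-like genes shows. Hist3h2ba and Hist4h4 each stood at -0.46 in the first, with intervals that include 0.

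**Figure D4:**
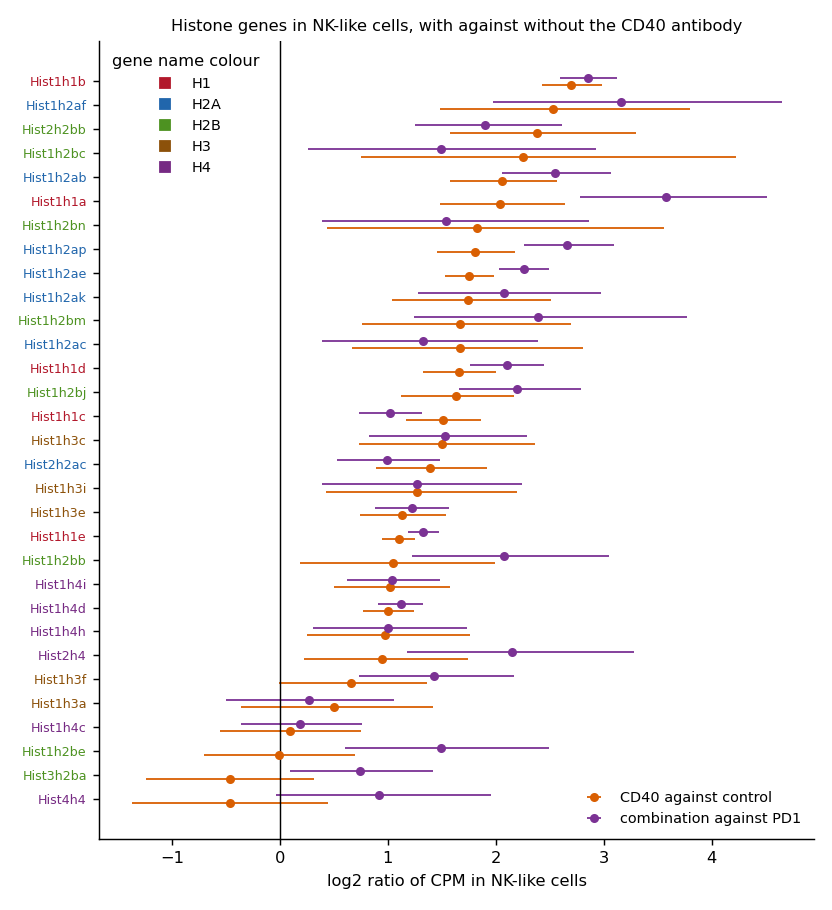
Log2 ratio of CPM in NK-like cells for the 31 histone genes with at least 30 UMIs in both comparisons (rows, name coloured by histone type), CD40 against control and combination against PD1, with 95% counting intervals. All combination points lie right of 0, and so do all CD40 points except those of Hist1h2be, Hist3h2ba and Hist4h4.

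The NK-like difference went together with the share of cells past the cycle-list gates. The share past the S-phase gate was 3.88% (18 of 464 cells), 21.2% (84 of 396), 5.47% (35 of 640) and 18.8% (99 of 527), and the exact intervals of the libraries with CD40 antibody (17.3 to 25.6% and 15.5 to 22.4%) did not overlap those without (2.32 to 6.06% and 3.84 to 7.52%). In cells positive for neither list the summed histone level was 315, 330, 327 and 355 CPM, so the CD40 to control log2 ratio there was 0.07 (interval -0.06 to 0.20) and the combination to PD1 ratio 0.12 (0.014 to 0.23). Within S-phase-list-positive cells the ratios were 0.055 and 1.63, with 3415.8, 3547.4, 1230.5 and 3807.3 CPM. The control value rests on very few cells, since 4 cells positive for both lists, at 9765.6 CPM, held 45% of the histone UMIs of the class. In the PD1 library 29 cells were positive for the S-phase list alone, at 265 CPM, and 6 for both lists. In the combination library these were 38 and 61 cells. The part of this mix in the ratio of 1.63 was not tested. Without the 3 cells with most histone UMIs in each library, an alternative chosen after the data were seen, the CD40 to control ratio was 1.98 and the combination to PD1 ratio 1.83.

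A stricter NK gate, which left 338, 194, 462 and 270 cells, gave ratios of 0.85 and 1.23, so in the first comparison the sum no longer reached 1. Under it 7 and 14 members were higher by at least 1 log2 unit. The number of members read and the share of all genes under that gate are not given here, so these counts have no background. Median depth also differed, with 5606, 11138, 6162 and 10972 UMIs per NK-like cell, and its part in the result was not tested beyond the scaling to CPM and the thinning. The PD1 antibody alone went with a lower sum (log2 -0.40, interval -0.49 to -0.31), and 4 of 24 members were lower by at least 1 log2 unit, where 1.14% of all genes were: Hist1h1a, Hist2h4, Hist1h2be and Hist4h4, with 30, 21, 30 and 21 UMIs in the control library. Without the 3 cells with most histone UMIs that ratio was -0.059. Between combination and CD40 it was -0.17, with no member past 1 log2 unit among 40.

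In CD8 T-like cells the histone genes were higher with the CD40 antibody by less. The sum was 1.42-fold higher in CD40 than in control (log2 0.51, interval 0.48 to 0.53) and 1.16-fold higher in combination than in PD1 (0.22, 0.20 to 0.24). Above 0 lay 41 of 52 and 44 of 56 members, where 49.9% and 54.6% of all genes did. None reached 1 log2 unit, where 2.95% and 3.63% of all genes did. The medians were 0.44 and 0.19, against -0.001 and 0.035 for all genes. Hist1h2ae had 193, 288, 246 and 267 CPM, Hist1h1e 175, 267, 229 and 248, and Hist1h1b 175, 259, 206 and 246. In all 3 the control library was lowest and the CD40 library highest. Hist1h4d had 98.3, 141, 111 and 134 CPM and Hist1h3e 42.4, 63.7, 52.1 and 60.4, in the same order. Hist1h2ap had 65.4, 115, 80.3 and 117 CPM, with log2 ratios of 0.82 and 0.54. The H2B gene Hist1h2bj did not follow, with 36.9, 40.8, 47.8 and 36.6 CPM, and was lower in combination than in PD1 (-0.38, interval -0.50 to -0.27).

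Here the difference was also present in S-phase-list-positive cells and in cells positive for neither list, but not in every cycle group. Within S-phase-list-positive CD8 T-like cells the log2 ratios were 0.38 (0.35 to 0.41) and 0.43 (0.41 to 0.45), and in cells positive for neither list 0.28 (0.18 to 0.39) and 0.21 (0.13 to 0.29). In cells positive for the S-phase list alone, combination was lower than PD1, at 486 against 517 CPM, with intervals that overlap. In cells positive for both lists it was higher, at 3707.2 against 2981.5 CPM. These groups had 252 and 695 cells in combination and 138 and 230 in PD1. The part of this mix in the ratio of 0.43 was not tested. PD1 against control gave a log2 ratio of sums of 0.20, and of -0.021 within positive cells (interval -0.054 to 0.013). The combination against CD40 ratio was -0.085.

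Mononuclear phagocyte-like cells had small differences, in opposite directions for the antibodies. The log2 ratio of sums was 0.35 (0.32 to 0.37) for CD40 against control and 0.26 (0.24 to 0.29) for combination against PD1. Hist1h2an, Hist1h2ag and Hist1h3b, 3 of 54 members, were higher by at least 1 log2 unit in the first, where 3.28% of all genes were. In the second they were Hist1h2af, Hist1h2ag and Hist1h3b, 3 of 51, where 2.83% were. Shares this near the background say little about the members. The medians were 0.29 and 0.34, against -0.015 and 0.0092. With the PD1 antibody the sum was lower: log2 -0.49 (-0.52 to -0.46) for PD1 against control, with 3 of 52 members above 0, and -0.57 (-0.60 to -0.55) for combination against CD40, with 3 of 55. Of all genes 39.5% and 43.7% lay above 0. The median member stood at -0.57 and -0.48, against -0.07 and -0.04 for all genes. By at least 1 log2 unit only 3 (Hist1h2ap, Hist1h2af and Hist1h4j) and 1 (Hist1h4f) were lower, where 2.44% and 2.61% of all genes were.

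Hist1h2ae had 50.4, 69.2, 29.7 and 35.2 CPM, Hist1h1b 38.8, 56.7, 24.3 and 35.3, and Hist1h1e 45.5, 57.6, 40.9 and 42.2. Hist1h4d had 24.7, 28, 21.3 and 26.5 CPM and Hist1h3e 8.91, 11.1, 7.2 and 9.56. The CD40 library was highest and the PD1 library lowest for these 5, while control and combination changed places between them. Hist1h1c differed, with 24.8, 25, 22 and 18.9 CPM and the combination library lowest. Hist1h2bc had 8.2, 9.68, 5.09 and 5.24. In cells positive for neither list the summed ratios shrank to 0.11, 0.093, -0.083 and -0.098 for CD40 against control, combination against PD1, PD1 against control and combination against CD40.

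Treg-like cells gave values that rest on few cells. The sum was higher in CD40 than in control (log2 0.33, interval 0.24 to 0.41), but 3 of 121 cells held 71.9% of the histone UMIs of the CD40 library. Without the 3 cells with most histone UMIs in each library the level there was 386 CPM against 841 CPM in control, and the ratio turned to -1.12. Of 28 members, Hist1h2ak, Hist3h2ba and Hist1h2af were higher by at least 1 log2 unit, where 2% of all genes were, and Hist1h3i was lower, where 3.49% were. Hist1h2ae had 146, 244, 223 and 194 CPM, Hist1h1e 141, 210, 202 and 212, and Hist1h1b 128, 136, 180 and 174. For these the control library was lowest. Hist1h1d had 75.7, 106, 64.5 and 63.8 CPM, Hist1h4d 79.6, 91.3, 97.6 and 124, Hist1h2bj 37.5, 28.4, 48.7 and 36.7, and Hist1h3e 40.6, 25.7, 38.3 and 45.5, with no shared order. The combination against PD1 ratio was 0.025 (-0.05 to 0.10), that of PD1 against control 0.37 and that of combination against CD40 0.068. Without the 3 cells with most histone UMIs the first was -0.40 and the last 1.14 (853 CPM in combination, 386 CPM in CD40).

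Neutrophils are short-lived cells that have left the cycle, and neutrophil-like cells were almost without cells past the S-phase gate: 0 of 30, 1 of 232, 0 of 25 and 1 of 759 cells, where a count of 0 leaves room for up to 11.6% and 13.7% by the exact interval. Most cells of the control and PD1 libraries, 153 of 183 and 121 of 146, had fewer than 3000 UMIs and were not read by the gate. Yet the summed histone CPM of the class was above that of mononuclear phagocyte-like cells in every library. Summed over the 4 libraries, Hist1h1c and Hist1h2bc had the most UMIs of the members, but in the combination library Hist1h1b, Hist1h4d and Hist1h1e stood above both. Among its cells positive for neither list, Hist1h1b (30.9 CPM) and Hist1h1e (33.4 CPM) lay below Hist1h1c (39.2 CPM) and Hist1h2bc (40.5 CPM). Hist1h4d (44.8 CPM) stayed above, with intervals that overlap. Hist1h2bc had 146, 84.4, 87.9 and 43.5 CPM in neutrophil-like cells. In the other 4 classes it ranged from 1.23 CPM (NK-like, control) to 9.68 CPM (mononuclear phagocyte-like, CD40). Hist1h1c had 146, 94.2, 107 and 43.3 CPM, and 18.9 to 76.2 CPM elsewhere. Hist1h4i, chosen after its values were seen, had 158, 47.1, 64 and 21.1 CPM, so its level in the combination library was within the range of the other classes (9.29 to 27.6 CPM).

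Neutrophil-like cells were set against CD8 T-like cells positive for neither list. In the 4 libraries the log2 ratio of Hist1h2bc was 6.72, 5.14, 4.66 and 4.62, that of Hist1h1c 2.37, 1.77, 2.45 and 0.75, and that of Hist1h4i 4.10, 2.35, 2.76 and 1.07. With Hist1h1b and Hist1h2be these were the members whose interval lay above 0 in every library. The share of all genes that met this condition is not given here, so the count does not mark the members out. In neutrophil-like cells positive for neither list Hist1h1b had 7.64, 31.9, 14.9 and 30.9 CPM, resting on 1 UMI in control and 2 in PD1. Hist1h2bc had 76.4, 78.3, 22.4 and 40.5 CPM in those cells, resting on 10 UMIs in control and 3 in PD1. The linker gene Hist1h1e, the member with the most UMIs in NK-like cells, had 63.4, 47.8, 42.6 and 47.6 CPM in neutrophil-like cells, and its ratio was 0.17, -0.42, -0.51 and -0.34. Of the remaining genes named for this class, Hist1h1b had 26.8, 33.7, 34.6 and 55.5 CPM, Hist1h4d 34.1, 40.1, 26.7 and 52.6, Hist1h2ae 19.5, 24.6, 34.6 and 35.8, and Hist1h3e 19.5, 18.3, 10.7 and 19.5. In the combination library 1 cell positive for both lists held 21.9% of the histone UMIs of the cells that were read.

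**Figure D5:**
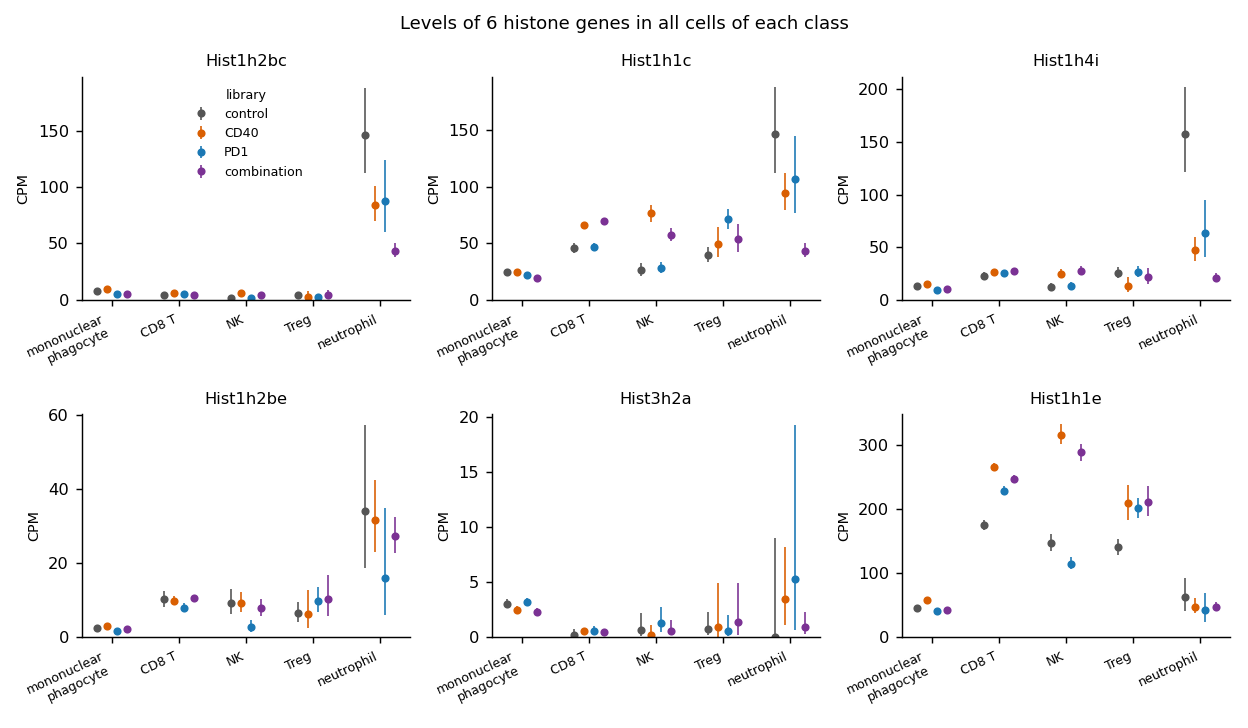
Level in CPM of 6 histone genes (panels) in all cells of 5 classes (x axis) by library (colour), with 95% counting intervals. Hist1h2bc is at 43.5 to 146 CPM in neutrophil-like cells and below 10 CPM elsewhere, whereas Hist1h1e is highest in T-like and NK-like cells.

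Between groups, Hist1h4i was the member lower by at least 1 log2 unit in CD40 than in control, 1 of 9 read, where 5.8% of all genes were. In combination against PD1 it was joined by Hist1h1c and Hist1h2bc, 3 of 19, where 27.1% of all genes were. The median of all genes in that comparison was itself -0.53, so these counts single out nothing about the members. The sums had log2 ratios of -0.44 (interval -0.63 to -0.26) and -0.13 (-0.33 to 0.078). The second was 0.42 when scaled by the median of ratios and 0.64 among cells of at least 3000 UMIs, so its direction depended on the setting, and its median member stood above 0, at 0.16. Between combination and CD40 the sum had -0.17, and 0.33 under the same scaling. Median depth was 1935, 3537, 2186 and 4438 UMIs per neutrophil-like cell and differed between the libraries in the same way as the treatments with CD40 antibody. The median neutrophil-like cell held 3, 9, 4 and 19 UMIs of the mononuclear phagocyte list, against 111, 248, 157 and 254 of the neutrophil list. The part of depth and of these markers in the ratios was not tested.

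Hist3h2a, the member with the lowest S-phase ratio, also differed between classes. In cells positive for neither list it had 3.27, 2.7, 3.27 and 2.37 CPM in mononuclear phagocyte-like cells and 0.462, 0.579, 0.836 and 0.388 CPM in CD8 T-like cells, higher in the former in every library. These rest on 170, 182, 245 and 145 UMIs in mononuclear phagocyte-like cells and on 2, 7, 6 and 9 in CD8 T-like cells.

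Genes that act with the histone genes were read from lists chosen with earlier results in view. In NK-like cells 20 of the 25 S-phase-list genes were higher by at least 1 log2 unit in CD40 than in control and 15 in combination than in PD1, with medians of 1.39 and 1.11. Of all genes 5.16% and 4.73% were that much higher. All 18 G2 and M genes were higher by that much in both, with medians of 2.43 and 3.14. Of the genes that control histone transcription and mRNA ends, 4 of 13 read were that much higher in both, and they were the S-phase entry genes Cdk2 (5.22, 21.2, 4.69 and 16.9 CPM), Ccne1, Ccne2 and E2f1. Slbp, whose protein binds the stem-loop, had 118, 193, 139 and 170 CPM (log2 0.71 and 0.29), and Npat, a coactivator at histone clusters, had 17.5, 16.4, 13.6 and 17.5 CPM. Histone chaperones had 3 and 2 of 12 genes higher by at least 1 log2 unit.

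Replacement histones are variants coded outside the replication-dependent clusters. Of all genes 5.16% and 4.73% were that much higher in CD40 than in control and in combination than in PD1. Of the replacement histones read, 2 of 9 and 3 of 10 were. These were H2afx (89.6, 233, 79.7 and 256 CPM), a variant that marks DNA breaks when phosphorylated, and the linker histone gene H1f0 (11.1, 32, 9.16 and 37.2 CPM), joined in the second by H1fx with 1 UMI in PD1 and 81 in combination. H3f3b, an H3.3 gene, had 1319.3 and 1267.1 CPM in NK-like cells of the control and CD40 libraries. In CD8 T-like cells no gene of the S-phase, chaperone or mRNA control lists reached 1 log2 unit in these 2 comparisons. Of the 25 S-phase-list genes there, 22 lay above 0 in CD40 against control (median 0.21) but 7 in combination against PD1 (median -0.089). In the latter the histone sum was higher (log2 0.22), and 16 of 18 G2 and M genes lay above 0 (median 0.21). The S-phase list also went in the opposite direction to the histone genes in Treg-like cells between CD40 and control. Of its 25 genes 14 were lower by at least 1 log2 unit (median -1.06), where 3.49% of all genes were. The histone sum was higher through the 3 cells described above.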

How the data were processed

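Raw UMI counts per gene and cell barcode were used as the authors deposited them, 1 filtered matrix for each of 4 libraries with 8132 to 10158 barcodes and 117735875 to 164755549 UMIs. Cell Ranger 7.0.0 was used upstream per the submitters' processing notes, with the GRCm38 build. Neither the annotation release nor the intron setting is given in the sources used here.

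Cells with fewer than 300 genes or more than 10% of UMIs from 13 mitochondrial genes were left out, as were those with a Scrublet doublet score of at least 0.25 (scanpy 1.11.5; 111 to 257 cells per library). Ambient RNA was not corrected. A cell was assigned to a class when it passed only that class's gate: at least 5 of 9 T cell (with 3 Cd3 UMIs), 5 of 9 NK, 4 of 7 B, 6 of 13 mononuclear phagocyte, 5 of 9 neutrophil, 3 of 4 dendritic, 4 of 6 plasmacytoid dendritic or 4 of 7 melanoma genes detected, where T cells could also pass the NK list. CD8 T-like cells had at least 2 Cd8a or Cd8b1 UMIs and no Foxp3, and Treg-like cells at least 1 Foxp3 UMI. In the 5 classes compared, between 1.137 and 19.83% of cells were exactly at the gate.

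UMIs were summed per class and library and scaled to CPM. Levels have exact Poisson, shares exact Clopper-Pearson and ratios exact conditional binomial 95% intervals, and 3 counts served as the floor. A gene was read in a comparison with at least 30 UMIs over its 2 libraries. With 1 library per group no test was run. Interval coverage was tested on simulated Poisson counts, the model that the intervals assume. That simulation does not cover UMIs concentrated in a few cells. For each class the 5 members with the most UMIs and the leading member of each histone type were named, and over all cells the 3 highest and 3 lowest S-phase ratios. The members and lists were chosen with earlier results of these data known. Alternatives covered the gates, doublets, cell weights, scaling, UMI minimum, thinning and the leading member.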

Additional observations from a re-analysis of the deposited data

How the results depend on the processing

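With 1 library per group no value has a replicate, so an alternative is set against the counting interval alone, and small movements fall outside it where UMIs are many. Keeping predicted doublets moved no sum beyond it. In order control, CD40, PD1 and combination, an S-phase gate 2 times higher gave shares of 1.68, 2.92, 0.789 and 1.1% for mononuclear phagocyte-like, 14.4, 21.1, 21 and 19% for CD8 T-like, 1.72, 12.6, 1.72 and 10.4% for NK-like and 9.07, 4.17, 8.07 and 6.94% for Treg-like cells. The log2 ratios of positive against other cells were then 1.80, 1.52, 1.28 and 1.58 in CD8 T-like, 3.99, 1.50, 2.10 and 2.11 in NK-like, 2.22, 2.88 and 2.64 in CD40, PD1 and combination mononuclear phagocyte-like, and 2.16, 2.27 and 2.51 in control, PD1 and combination Treg-like cells. Without thinning the shares were 32, 41.7, 23.4 and 33.7% (mononuclear phagocyte-like), 58.5, 71.6, 72.7 and 73.2% (CD8 T-like), 16.7, 48, 21.1 and 51.4% (NK-like) and 31.4, 37.2, 32.4 and 41.8% (Treg-like). All of these ratios stayed above 1 and the NK-like shares with CD40 antibody stayed above those without it under both settings.

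The following values are log2 ratios of sums for CD40 against control, combination against PD1, PD1 against control and combination against CD40. Under the stricter cell gate they were 0.27, 0.42, -0.60 and -0.45 in mononuclear phagocyte-like cells, and 0.41 and 0.094 in CD8 T-like cells for CD40 and PD1 against control. In NK-like cells they were 0.85, 1.23 and, for combination against CD40, -0.11, with medians of 0.69 and -0.019 in the first and last and with 7 and 14 members higher by 1 unit in the first pair. In Treg-like cells they were 0.22, -0.19 and, for combination against CD40, -0.034. In neutrophil-like cells they were -0.57 for combination against PD1, whose median turned to -0.45, and -0.61 for combination against CD40. Counts higher by 1 unit became 6 for mononuclear phagocyte-like combination against PD1, 1 and 2 for Treg-like CD40 and PD1 against control, and 0 for neutrophil-like combination against CD40. With every cell weighted equally they were 0.29, -0.36 and -0.38 (mononuclear phagocyte-like, without the second comparison), 0.67, 0.32, 0.38 and, reversed, 0.043 (CD8 T-like), 1.36, 1.38, -0.14 and -0.12 (NK-like), 0.26 and 0.15 for combination against PD1 and PD1 against control (Treg-like), and -0.44 and -0.40 for combination against PD1 and against CD40 (neutrophil-like).

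Under median of ratios scaling, PD1 against control and combination against CD40 were -0.42 and -0.53 in mononuclear phagocyte-like cells, and combination against PD1 was 0.18 in CD8 T-like and 1.77 in NK-like cells. This scaling shifted all genes by -0.14 in neutrophil-like CD40 against control and by -0.55 in combination against PD1. There the median for CD40 against control turned to 0.034, combination against PD1 had a sum of 0.42, a median of 0.71 and 8 members higher by 1 unit, and combination against CD40 turned to 0.33 with 7 such members. A minimum of 150 UMIs left 0 and 1 mononuclear phagocyte-like members higher by 1 unit for CD40 against control and combination against PD1, 13 and 12 in NK-like cells with a median of 2.10 in the second, 0 in Treg-like CD40 against control and 0 in neutrophil-like combination against CD40. The neutrophil-like median for CD40 against control was then -0.71. Fewer members are read at that minimum, so a smaller count there is not by itself a weaker result. For none of the alternatives is the number of members read or the share of all genes past 1 unit given. Their counts of members therefore have no background.

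Without the member with the most UMIs, ratios were 0.30 and -0.55 (mononuclear phagocyte-like, combination against PD1 and PD1 against control), 1.57 and 1.82 (NK-like, first pair) and -0.045 (neutrophil-like, combination against CD40). For positive against other cells they were 2.28, 2.30 and 2.70 (mononuclear phagocyte-like, control, CD40 and PD1), 2.55, 2.19, 1.98 and 2.52 (CD8 T-like), 3.17, 2.49, 2.04 and 3.18 (NK-like) and 2.81, 3.91 and 2.98 (Treg-like, control, CD40 and PD1). The last 3 alternatives were chosen after seeing the data. Without the 3 cells with most histone UMIs the sums were 0.23 and -0.63 (mononuclear phagocyte-like, combination against PD1 and against CD40), 0.57, 0.24, 0.27 and -0.063 (CD8 T-like), 1.98, 1.83 and -0.059 (NK-like, without the last), -1.12, -0.40 and 1.14 (Treg-like, without the third) and -0.42 (neutrophil-like, combination against CD40). Cells of at least 3000 UMIs gave 0.64 and -1.05 in neutrophil-like combination against PD1 and PD1 against control. Without shared barcodes the values were 0.40 and -0.43 (mononuclear phagocyte-like, CD40 and PD1 against control) and -0.063 (CD8 T-like, combination against CD40). Apart from the exceptions named, the causes of these movements were not tested.

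No paired analysis was possible because each group was 1 library. Treg-like and neutrophil-like sums have limited depth, with 1468 histone UMIs in the smallest Treg-like library and 213 in the smallest neutrophil-like one. Gates were set on these data, S-phase gating reads only cells of at least 3000 UMIs.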
